A study of Brassica napus with 27 samples.

Results

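The 3 defence genes described here belong to *Brassica napus* (oilseed rape) and were measured in leaves treated with auxinic herbicides: the basic endochitinase gene CHB4 (BnaA03g20310D), the pathogenesis-related gene PR1 (BnaC03g45470D) and a defensin gene (BnaA07g32130D). They are 3 of 104573 genes in the deposited table. They were picked by gene name because their levels were higher 2 h after Pic than in control leaves and because they took different courses afterwards, so their values in those contrasts are descriptions. All plants were of the cultivar Visby, grown at 15 °C with 12 h of light to leaf stage BBCH11. Drops on 1 leaf held halauxifen (Hal, 0.5 µg per leaf), picloram (Pic, 2.4 µg per leaf) or a control solution without herbicide (control), and leaves were frozen after 2, 48 or 96 h. Each of the 9 groups has 3 libraries from different plant materials, 27 in all. Both herbicides are synthetic auxins of the picolinate type, and Hal, an arylpicolinate, carries a substituted phenyl ring that Pic lacks. Because their doses differ, Hal and Pic values are given side by side and were not tested against each other. The Hal and Pic contrasts of a time share its 3 control libraries.

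Plants answer pathogens and some other stresses by making pathogenesis-related proteins, many of which are secreted. Chitinases cut chitin, the polymer of fungal cell walls, and PR1 proteins belong to the CAP superfamily (cysteine-rich secretory proteins, antigen 5 and PR1), while plant defensins are small cysteine-rich peptides, many of them antimicrobial. In Arabidopsis, PR1 is a widely used marker of salicylic acid signalling and the defensin gene PDF1.2 one of jasmonate and ethylene signalling.

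The libraries held between 15565637 and 19692242 reads, worked back from the deposited FPKM, a fragment level per gene length and a total for each library. That total was not the read count, and it was 0.751 to 1.25 times the reads. At 96 h, it was 0.751 to 0.808 times the reads in control libraries and 1.20 to 1.25 times in Hal libraries. The scaling to equal totals of reads, used below as an alternative, replaced it with the reads of each library. Hal replicate 3 of 2 h had reads in 53523 genes, the fewest, and the next lowest library had 56640. The leaf list, which holds genes for chlorophyll a-b binding proteins and the small subunit of ribulose bisphosphate carboxylase, had reads in 53 or 54 of its 58 genes in every group, and its summed level was between 98665 and 198111 FPKM. That sum was lower in Hal leaves (98665 to 107691 FPKM) and in Pic leaves (115711 to 117542 FPKM) than in control leaves (168247 to 189997 FPKM) at 96 h. It was also lower at 48 h, with 133411 to 139806 FPKM in Hal leaves and 154403 to 168452 FPKM in Pic leaves, against 170688 to 198111 FPKM in control leaves. At 2 h, it was 102901 to 108033 FPKM in Hal leaves, below control leaves (111979 to 120424 FPKM), and 102269 to 116905 FPKM in Pic leaves, which overlapped with control. The part of these levels in the results was not tested. The 16 seed genes of the marker list summed to at most 1.38 FPKM in any library. In bulk leaf RNA, fewer cells of a type and less RNA per cell cannot be told apart. The p-values below rest on the spread between the 3 libraries of a group, pooled over all 9 groups and drawn toward a trend over the tested genes.

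The chitinase gene was above control at 2 h after both herbicides, and at 48 h it was above control after Hal and below it after Pic. CHB4 is annotated on scaffold LK031832 (chromosome A03, 1704807 to 1706356, plus strand), and 1044 of the 1550 bases it spans count as gene length. At 2 h, it had 8.44, 8.96 and 10.6 FPKM in Hal leaves, 19.0, 15.5 and 13.9 FPKM in Pic leaves, and 0.885, 0.864 and 1.57 FPKM in control leaves. Every herbicide library lay above every control library at that time. In Hal leaves, the level averaged 9.34 ± 1.14 FPKM against 1.11 ± 0.403 FPKM in control leaves (SD, n = 3 each), a ratio of 8.44. This was the contrast the choice of genes did not name, although it shares its 3 control libraries with the Pic contrast that chose them. On the log2(FPKM + 1) scale the rise was 2.31 ± 0.18 (SE), with a limma adjusted p of 9.68e-10 over 46395 tested genes, the 34th largest value of all. Without Hal replicate 3, the library with the fewest detected genes, it was 2.22. The log2 scale with a pseudocount of 1 understates a rise from such a low control level, and a pseudocount of 0.1 gave 3.01. In Pic leaves, the mean was 16.1 ± 2.59 FPKM and the ratio to control 14.6.

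At 48 h, CHB4 had 8.26, 6.14 and 6.75 FPKM in Hal leaves and 0.0554, 0.174 and 0.342 FPKM in Pic leaves, against 0.727, 1.25 and 0.506 FPKM in control leaves. Hal libraries were all above and Pic libraries all below the control libraries. The Hal mean was 8.52 times the control mean, and the control mean was 4.34 times the Pic mean. The Pic value rests on 1, 3 and 6 reads in the 3 libraries, against 11, 18 and 8 reads in the control libraries, so the size of that difference is imprecise. At 96 h, levels were 2.11, 3.24 and 2.72 FPKM in Hal leaves, 0.304, 0.852 and 0.630 FPKM in Pic leaves, and 1.42, 2.30 and 1.96 FPKM in control leaves. Hal and control libraries overlapped then, whereas Pic libraries remained below control. The log2(FPKM + 1) scale compresses differences this close to 0: at 48 h after Pic it gave -0.60, and a pseudocount of 0.1 gave -1.72.

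**Figure D1:**
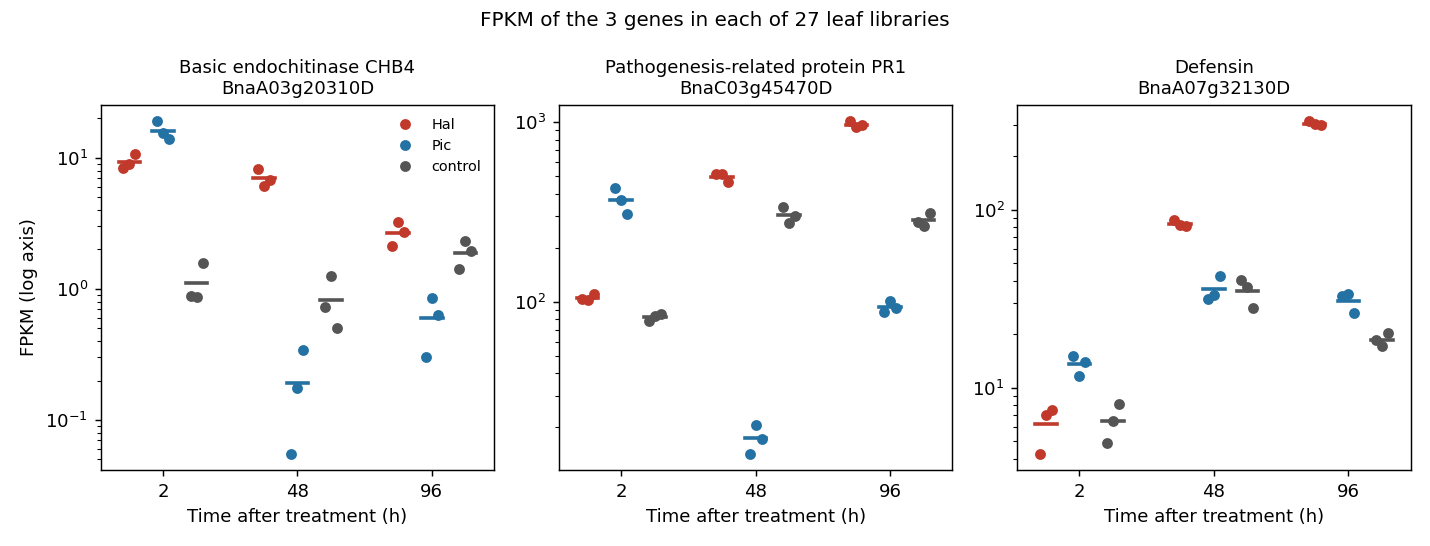
FPKM (log axis) of CHB4, PR1 and the defensin gene at 2, 48 and 96 h in Hal, Pic and control leaves, with 1 point per library and a line at the mean of 3. In Pic leaves at 48 h, CHB4 averages 0.191 FPKM and PR1 17.4 FPKM, the lowest of their groups, and the defensin gene averages 304 FPKM in Hal leaves at 96 h, the highest of its groups.

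PR1 was the most abundant of the 3 genes in every group except Pic leaves at 48 h, and at 48 and 96 h it was above control after Hal and below control after Pic. It is annotated on scaffold LK031860 (chromosome C03, 296791 to 297409, minus strand), with a length of 619 bases and an SCP domain, the domain of the CAP superfamily. At 2 h, it had 104, 102 and 111 FPKM in Hal leaves, 428, 370 and 310 FPKM in Pic leaves, and 77.9, 83.3 and 85.3 FPKM in control leaves. All 6 herbicide libraries were above the 3 control libraries, with a wide gap for Pic and a narrow one for Hal. The Hal mean of 106 ± 4.36 FPKM was 1.29 times the control mean of 82.2 ± 3.83 FPKM (SD, n = 3 each). PR1 rose by 0.36 ± 0.11 (log2, SE) in Hal leaves, with a limma adjusted p of 0.0211. The call depends on single libraries, since the adjusted p was 0.0662 without Hal replicate 3 and 0.0822 without control replicate 1, and it ranged from 0.0101 to 0.0822 over the alternatives. With CHB4, PR1 was 1 of 2 among the 3 genes upregulated in Hal leaves at 2 h, where 10.1% of all tested genes were upregulated and 11.4% downregulated. In Pic leaves, the mean at 2 h was 369 ± 59.3 FPKM, 4.50 times that of control leaves.

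At 48 h, PR1 had 517, 513 and 462 FPKM in Hal leaves and 14.3, 20.5 and 17.3 FPKM in Pic leaves, against 335, 275 and 300.4 FPKM in control leaves. No library of one group entered the range of another. The Hal mean was 1.64 times the control mean, while the control mean was 17.5 times the Pic mean. The log2 difference of -4.06 after Pic was the 17th smallest of 46395. At 96 h, PR1 had 1011, 935 and 962 FPKM in Hal leaves, 87.9, 102 and 92.4 FPKM in Pic leaves, and 278, 264 and 313 FPKM in control leaves. The Hal mean of 969 ± 38.3 FPKM was 3.40 times the control mean, and the control mean of 285 ± 25.5 FPKM was 3.03 times the Pic mean of 93.9 ± 6.94 FPKM. PR1 in Pic leaves was thus lowest at 48 h and 5.40 times higher at 96 h, still below control.

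A gene described as PR-1a (BnaA03g38630D, scaffold LK031874, chromosome A03, 1397946 to 1398575, minus strand) also carries an SCP domain. How reads that match both genes were assigned is not given in the sources used here, so the split between them is uncertain. At 2 h, PR-1a had 36.2, 38.1 and 37.8 FPKM in Hal leaves, 385, 357 and 323 FPKM in Pic leaves, and 74.1, 65.6 and 73.0 FPKM in control leaves. All 3 Hal libraries were below and all 3 Pic libraries above control. PR-1a therefore fell by 0.90 ± 0.08 (log2, SE) in Hal leaves (limma adjusted p = 2.95e-09), where PR1 was slightly higher, and it rose by 2.31 ± 0.08 in Pic leaves (limma adjusted p = 1.40e-16). Over the later times, PR-1a was upregulated after Hal by 0.91 at 48 h and 2.75 at 96 h, and it fell by 4.23 at 48 h after Pic (limma adjusted p = 3.57e-10, 2.23e-19 and 6.40e-22). At 96 h after Pic the difference was -0.32 (limma adjusted p = 0.00111), and it turned to 0.14 under a scaling that gives every library the same read total.

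The ratio of PR1 to PR-1a within a library does not depend on library scaling. It was 2.89, 2.68 and 2.93 in Hal leaves at 2 h, against 1.05, 1.27 and 1.17 in control leaves of the same time. At 96 h it was 1.12, 1.00 and 1.10 in Hal leaves and 0.861, 0.854 and 0.922 in Pic leaves, against 2.26, 1.95 and 2.18 in control leaves. The Hal libraries of 2 h and the control libraries of 96 h stood apart, and in the other 7 groups the ratio was between 0.837 and 1.30. These ratios were singled out after their values were seen and were not tested.

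**Figure D2:**
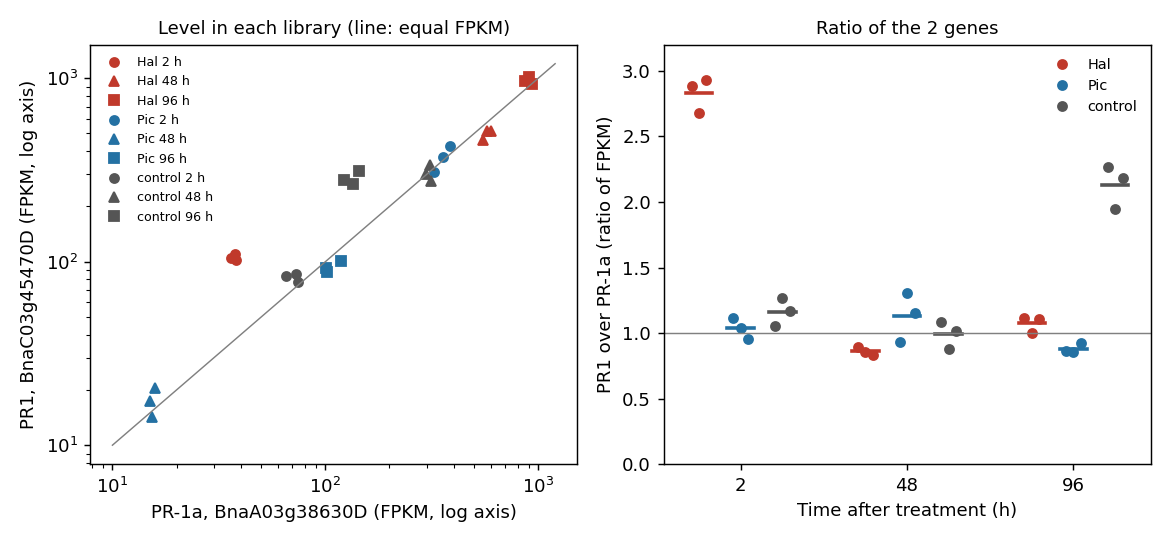
PR1 against PR-1a in FPKM (log axes, line at equal levels) and the ratio of PR1 to PR-1a by time, with 1 point per library and a line at the mean of 3. Hal libraries of 2 h and control libraries of 96 h lie above a ratio of 1.9, and the remaining libraries lie close to 1.

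At 2 h, the defensin gene was above control after Pic and overlapped with control after Hal, and its highest level was in Hal leaves at 96 h. It is annotated on scaffold LK031850 (chromosome A07, 1680757 to 1681335, minus strand), with 486 of 579 bases counted as gene length. At 2 h, it had 4.27, 7.05 and 7.46 FPKM in Hal leaves, 15.1, 11.7 and 13.9 FPKM in Pic leaves, and 4.92, 6.55 and 8.15 FPKM in control leaves. Hal and control libraries overlapped, and all Pic libraries were above them. Between Hal and control leaves no change was detected (log2 difference -0.06 ± 0.17, SE, limma adjusted p = 0.836), and its sign depended on the library left out, with values from -0.23 to 0.15. The Pic mean of 13.6 ± 1.76 FPKM was 2.07 times the control mean of 6.54 ± 1.62 FPKM (SD, n = 3 each).

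At 48 h, the defensin gene had 87.1, 81.6 and 81.2 FPKM in Hal leaves and 31.4, 33.3 and 42.3 FPKM in Pic leaves, against 40.2, 36.7 and 28.1 FPKM in control leaves. Hal libraries were all above control, at 2.38 times its mean, and Pic libraries overlapped with control. At 96 h, it had 313, 302 and 297 FPKM in Hal leaves, 32.6, 33.6 and 26.2 FPKM in Pic leaves, and 18.5, 17.1 and 20.2 FPKM in control leaves. The Hal mean of 304 ± 8.28 FPKM was 16.3 times the control mean of 18.6 ± 1.58 FPKM, and the log2 difference of 3.96 was the 64th largest of 46395. The Pic mean was 1.65 times the control mean, with no overlap.

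A second defensin gene, annotated as Defensin 1.2 (BnaA07g32150D), lies on the same scaffold and strand, with its start coordinate 5995 bases from that of the first. It was far more abundant, with means of 302 ± 94.4 FPKM in Hal leaves, 396 ± 84.1 FPKM in Pic leaves and 311 ± 26.97 FPKM in control leaves at 2 h. Those groups overlapped, and no change passed the test (limma adjusted p = 0.790 for Hal and 0.187 for Pic). It was upregulated after Hal by 0.47 ± 0.17 at 48 h and 1.37 ± 0.17 at 96 h (log2, SE, limma adjusted p = 0.0253 and 2.04e-07). At 96 h it had 1785, 1670 and 1615 FPKM in Hal leaves and 427, 501 and 370.1 FPKM in Pic leaves, against 602, 631 and 739 FPKM in control leaves. Pic libraries were thus below control for Defensin 1.2 (log2 difference -0.61, limma adjusted p = 0.00475), where the neighbouring defensin gene was above control. With equal totals of reads the Pic difference was -0.14 and did not pass. Defensin 1.2 exceeded its neighbour 56.9, 49.2 and 40.5 times in control leaves at 2 h, and 5.70, 5.52 and 5.44 times in Hal leaves at 96 h. As with PR1 and PR-1a, the assignment of any reads that match both defensin genes is not given in the sources used here. The level of the scarcer gene is therefore uncertain.

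Set side by side, the 3 genes differed in which group was highest. CHB4 was highest in Pic leaves at 2 h, followed by Hal leaves at 2 h and at 48 h, and those 3 groups were apart from each other and from the rest. PR1 and the defensin gene were highest in Hal leaves at 96 h and then at 48 h, again apart from all other groups. PR1 was lowest in Pic leaves at 48 h, apart from the next group, control leaves at 2 h. The defensin gene was lowest in Hal leaves at 2 h, overlapping with control leaves of that time. Control leaves changed over time as well: PR1 was 3.69 times higher at 48 h than at 2 h and overlapped between 48 and 96 h. The defensin gene in control leaves was 5.35 times higher at 48 h than at 2 h, and its level at 96 h was 0.532 times that at 48 h. Over the 27 libraries, Pearson's r of log2(FPKM + 1) was 0.50 between CHB4 and PR1, -0.14 between CHB4 and the defensin gene, and 0.50 between PR1 and the defensin gene. The points share 9 groups and the same libraries.

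Neighbouring genes on each scaffold were examined as a local background. For CHB4 (40 neighbours) and PR1 (33 neighbours), the median neighbour differed by no more than 0.15 on the log2 scale in any of the 6 contrasts. For the defensin gene, the median of 24 neighbours was 0.52 higher in Pic leaves than in control leaves at 2 h, and 14 of them were upregulated and 1 downregulated, where 10.7% of all tested genes were upregulated and 9.37% downregulated. The defensin gene's own difference there was 0.97. At 96 h after Pic, its neighbours had a median of -0.39, against 0.69 for the gene itself, and at 96 h after Hal a median of -0.04, against 3.96. The part of these neighbours' shift in the defensin values was not tested.

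**Figure D3:**
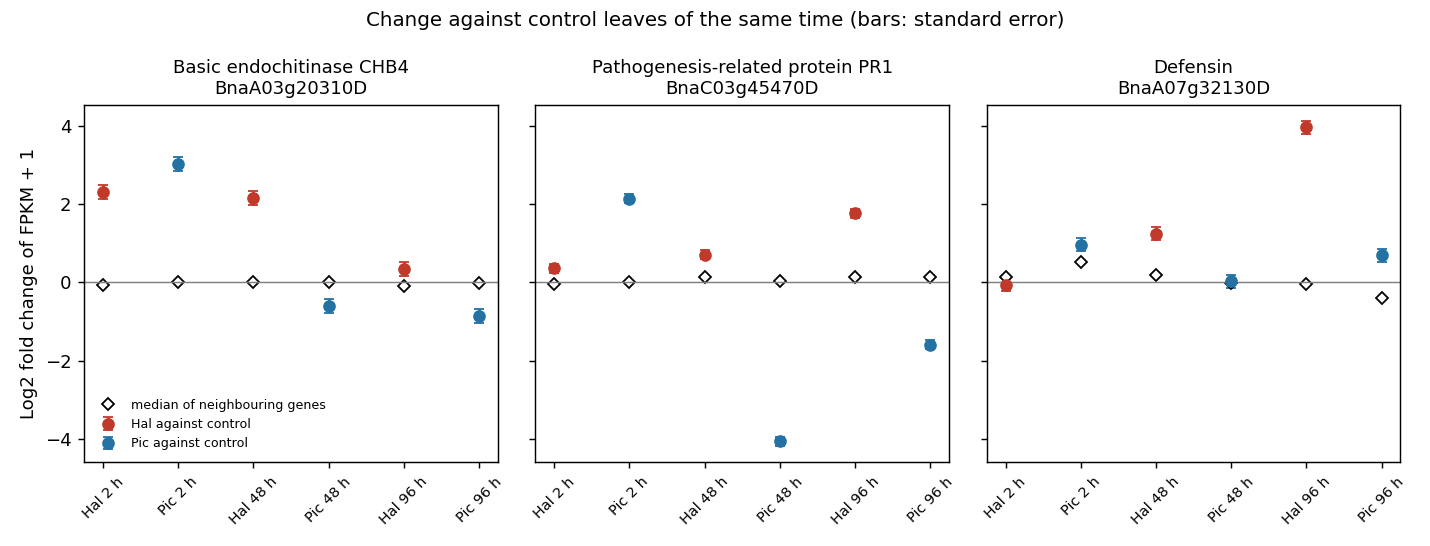
Log2 fold change of FPKM + 1 against control leaves of the same time for each gene (bars: SE), with diamonds for the median of its neighbouring tested genes. The defensin gene at 2 h after Pic, at 0.97, is the value whose neighbours moved most, at 0.52.

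Other genes of the same and of related defence families were counted from lists built on descriptions and protein domains, with the 3 genes left out. Of 299 genes, 124 were tested, 74 of them in the Glyco_hydro_17 list and 40 in the thaumatin list. Only 11124 of the 104573 genes have a description, so the lists can miss genes of these families. The only other gene found for the chitinase list had no reads. Only 5 of 56 other CAP domain genes and 4 of 7 other defensin and thionin genes passed the filter on low values. Searches for Barwin (PR4 family) and salicylate signalling genes found 0 genes. At 2 h after Hal, 0 of the 5 CAP domain genes rose and 4 fell, beside 10.1% and 11.4% of all tested genes. PR-1a was among these 4, with BnaC09g07970D (-0.53), BnaA08g30830D (-1.03) and BnaA09g07820D (-0.49), which have limma adjusted p of 0.0100, 0.000397 and 0.0441. At 2 h after Pic, PR-1a was the only 1 of the 5 that changed, beside 10.7% of all tested genes upregulated and 9.37% downregulated.

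Among the defensins and thionins, BnaC08g18880D passed the filter on low values only through its Hal libraries, so its difference after Hal was not read as a test. Of the other 3 genes, 2 rose and 1 fell at both 48 and 96 h after Hal, where 23.3% and 29.1% of all tested genes rose and 25.1% and 30.2% fell. The gene that fell was BnaC07g21510D, a defensin gene with 16.8 ± 0.353 FPKM in Hal leaves, against 78.8 ± 8.99 FPKM in control leaves at 96 h (log2 -2.16 ± 0.17, SE, limma adjusted p = 1.30e-10). It was also lower 48 h after Hal (-1.28) and 96 h after Pic (-0.87), and higher 48 h after Pic (0.54), with limma adjusted p of 1.40e-06, 0.000250 and 0.0193. BnaC03g37070D (Thionin-2.1), of a family of toxic cysteine-rich peptides, fell at 2 h by 1.19 after Hal and 0.72 after Pic (limma adjusted p = 5.14e-05 and 0.00751). At 96 h it averaged 14.2 ± 3.89 FPKM in Hal leaves against 2.57 ± 0.627 FPKM in control leaves, a rise of 2.07 (limma adjusted p = 1.23e-09). BnaC08g18880D, a scarce defensin gene, had 0 reads in Hal and control leaves at 2 h, and it had 37 reads in Hal leaves against 3 reads in control leaves at 96 h.

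Of 40 tested genes with the domain of thaumatin-like proteins (PR5 family, many with antifungal activity), 11 rose and 3 fell at 2 h after Hal, and 16 rose and 2 fell at 2 h after Pic. The upregulated shares were 27.5% after Hal and 40% after Pic, beside 10.1% and 10.7% of all tested genes. The downregulated shares were 7.5% after Hal and 5% after Pic, beside 11.4% and 9.37%. The list's median log2 difference was 0.20 after Hal and 0.31 after Pic, against 0.00 and -0.01 over all tested genes. At 48 h, 14 rose and 6 fell after Hal (35% and 15%, beside 23.3% and 25.1% of all tested genes). After Pic at that time, 7 rose and 10 fell (17.5% and 25%, beside 13.9% and 17.9%). At 96 h, 17 rose and 8 fell after Hal (42.5% and 20%, beside 29.1% and 30.2% of all tested genes). After Pic at that time, 5 rose and 14 fell (12.5% and 35%, beside 22.2% and 26.4%). Of the 40 genes, 3 passed the filter on low values only through Hal libraries, and all counts here include them. Of the other 37, 12 rose and 6 fell at 48 h after Hal, and 15 rose and 8 fell at 96 h. At 2 h after Hal, 11 of those 37 rose and 2 fell. With equal totals of reads, the counts after Pic at 96 h were 14 up and 9 down, where 41% of all tested genes rose and 12.6% fell. Those after Hal were 23 up and 5 down, beside 51.6% and 16.1% of all tested genes. At 48 h, that scaling gave 22 up and 3 down after Hal, beside 39.6% and 15.1%. After Pic it gave 9 up and 10 down at 48 h, beside 22.5% and 10.9%. The abundant BnaA01g12890D averaged, at 96 h, 132 ± 9.44 FPKM in Hal leaves and 27.6 ± 4.78 FPKM in Pic leaves, against 91.4 ± 10.8 FPKM in control leaves (log2 0.53 and -1.70, limma adjusted p = 0.000974 and 1.50e-10). BnaA09g44230D rose by 1.14 at 96 h after Hal (limma adjusted p = 3.84e-09). Its fall of -0.29 after Pic (limma adjusted p = 0.0327) turned to 0.17 with equal totals of reads.

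Genes with a Glyco_hydro_17 domain, the domain of the beta-1,3-glucanases of the PR2 family, were the longest list. Of 74 tested, 6 rose and 12 fell at 2 h after Hal (8.11% and 16.2%), and 12 rose and 4 fell after Pic (16.2% and 5.41%), where 10.1% of all tested genes rose and 11.4% fell after Hal, and 10.7% rose and 9.37% fell after Pic. At 48 h, 16 rose and 15 fell after Hal (21.6% and 20.3%, beside 23.3% and 25.1% of all tested genes), and 9 rose and 15 fell after Pic (12.2% and 20.3%, beside 13.9% and 17.9%). At 96 h, 17 rose and 19 fell after Hal (23.0% and 25.7%, beside 29.1% and 30.2%), and 23 rose and 9 fell after Pic (31.1% and 12.2%, beside 22.2% and 26.4%). Of the 74 genes, 3 passed the filter on low values only through Hal libraries, and all counts here include them. Of the other 71, 16 rose and 15 fell at 48 h after Hal, and 16 rose and 18 fell at 96 h. At 2 h after Hal, 5 of those 71 rose and 12 fell. With equal totals of reads, 30 rose and 7 fell at 48 h after Hal, where 39.6% of all tested genes rose and 15.1% fell. At 48 h after Pic, 18 rose and 12 fell under that scaling, beside 22.5% and 10.9% of all tested genes. At 96 h, it gave 32 up and 5 down after Hal, beside 51.6% and 16.1%. It gave 40 up and 4 down at 96 h after Pic, beside 41% and 12.6%. The most abundant, BnaC04g24330D, had 256 ± 30.1 FPKM in Pic leaves against 86.9 ± 2.70 FPKM in control leaves at 2 h (log2 1.54, limma adjusted p = 7.04e-13). At 48 h it fell to 37.3 ± 3.30 FPKM in Pic leaves, against 198 ± 10.9 FPKM in control leaves (log2 -2.38, limma adjusted p = 5.51e-17). The next, BnaA04g02490D, did not pass at 2 h after Pic (0.14) and fell by 0.93 after Hal (limma adjusted p = 0.460 and 2.19e-06). The single MLP-like gene of the PR10-related list, BnaAnng33440D, fell at 2 h by 1.01 after Hal and 0.80 after Pic, and rose by 1.02 at 48 h after Pic (limma adjusted p = 4.88e-05, 0.000641 and 2.51e-05).

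**Figure D4:**
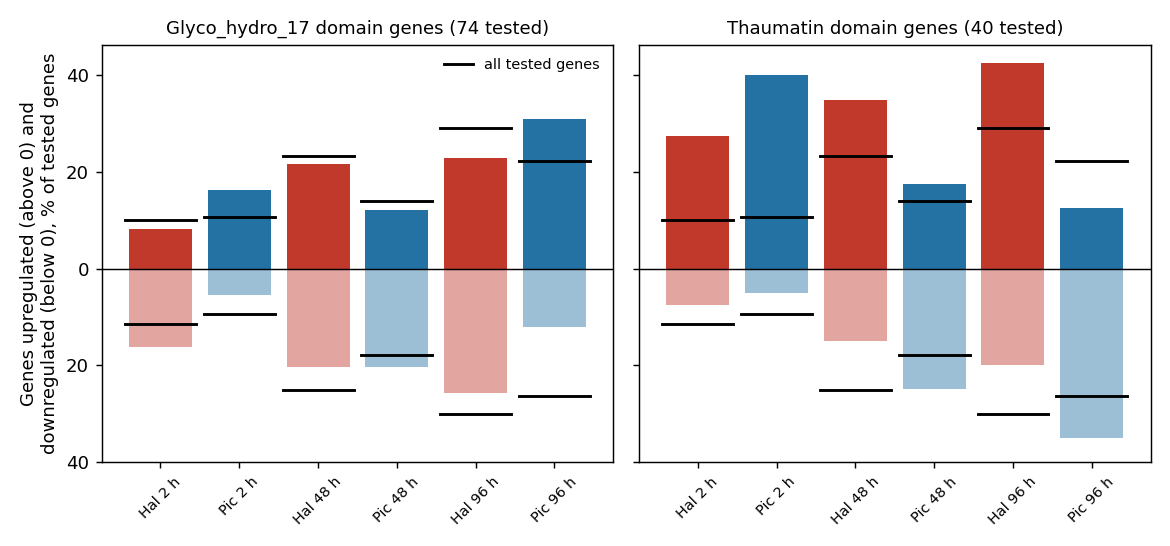
Share of tested genes upregulated (above 0) and downregulated (below 0) in each contrast against control, for Glyco_hydro_17 domain genes (74 tested) and thaumatin domain genes (40 tested), with black lines for all tested genes. At 2 h after Pic, 40% of thaumatin domain genes rose, against 10.7% of all tested genes. Each list includes 3 genes that passed the filter on low values only through Hal libraries.

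Counted over all lists, 17 genes rose and 21 fell at 2 h after Hal (13.7% and 16.9%, beside 10.1% and 11.4% of all tested genes). At 2 h after Pic, 29 rose and 8 fell (23.4% and 6.45%, beside 10.7% and 9.37%). At 48 h, 34 rose and 23 fell after Hal (27.4% and 18.5%, beside 23.3% and 25.1%), and 20 rose and 26 fell after Pic (16.1% and 20.97%, beside 13.9% and 17.9%). At 96 h, 38 rose and 29 fell after Hal (30.6% and 23.4%, beside 29.1% and 30.2%), and 29 rose and 27 fell after Pic (23.4% and 21.8%, beside 22.2% and 26.4%). The counts include 7 of the 124 genes that passed the filter only through Hal libraries. Without those 7, the counts after Hal were 31 up and 23 down at 48 h, and 34 up and 28 down at 96 h. At 2 h after Hal they were 16 up and 20 down. The split at the later times depended on library scaling. With equal totals of reads, 57 rose and 12 fell at 48 h after Hal, where 39.6% of all tested genes rose and 15.1% fell. At 48 h after Pic, 32 rose and 23 fell, against 22.5% and 10.9% of all tested genes. At 96 h after Hal, 60 rose and 11 fell, against 51.6% and 16.1%, and at 96 h after Pic, 57 rose and 15 fell, against 41% and 12.6%. The same scaling moved the median of all tested genes by 0.25 and 0.42 after Hal and by 0.14 and 0.29 after Pic at those times, and by 0.01 after Hal and 0.02 after Pic at 2 h. None of the differences of CHB4, PR1 and the defensin gene in the 6 contrasts changed sign under it.

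The genes whose levels were most like each of the 3 over the 27 libraries are given as a description, by Pearson's r of log2(FPKM + 1). For PR1, the first was BnaA04g02500D, a Glyco_hydro_17 domain gene (r = 0.95), followed by PR-1a (0.95) and BnaC01g41460D, a thaumatin domain gene (0.94). BnaA04g02500D averaged 90.3 ± 9.19 FPKM in Pic leaves against 20.6 ± 1.59 FPKM in control leaves at 2 h, and 2.41 ± 0.356 FPKM against 46.4 ± 2.86 FPKM at 48 h. BnaC01g41460D averaged 68.1 ± 5.67 FPKM in Pic leaves against 19.7 ± 1.15 FPKM in control leaves at 2 h, and 0.662 ± 0.246 FPKM against 31.99 ± 6.05 FPKM at 48 h. The fourth, BnaC03g33270D, has no description (0.94), and the fifth, BnaAnng05540D, has a zinc-binding dehydrogenase domain (0.93).

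For CHB4, the 5 most alike genes had r between 0.90 and 0.92: BnaA01g34980D, BnaA08g00970D with a GDSL lipase domain, BnaA01g06750D, a xyloglucan endotransglucosylase/hydrolase of the kind that remodels cell walls, BnaA09g55070D, an AT-hook protein, and BnaA03g56720D. BnaA08g00970D averaged 24.5 ± 1.51 FPKM in Pic leaves against 0.889 ± 0.116 FPKM in control leaves at 2 h, and had 1 read over the 3 Pic libraries at 48 h. For the defensin gene, r was between 0.95 and 0.96 for BnaC05g05030D (phosphoesterase domain), BnaC07g14700D, BnaA06g38150D (SPX domain, found in proteins of phosphate sensing), BnaA10g27930D (lipase domain) and BnaA10g21510D (CBS domain). BnaA06g38150D averaged 64.6 ± 4.32 FPKM in Hal leaves and 21.6 ± 1.43 FPKM in Pic leaves, against 13.5 ± 0.801 FPKM in control leaves at 96 h.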

How the data were processed

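The authors deposited 1 table of FPKM for 104573 genes in 27 libraries, made by Novogene with the NEBNext Ultra kit. The submitters' processing notes name CASAVA, HISAT2, StringTie, DESeq2, edgeR and GATK. Versions, genome build, strand setting and the counting of reads shared by gene copies are not given in the sources used here. FPKM times gene length gave whole reads for 100% of values (tolerance 0.01).

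A gene was tested when 3 or more libraries reached 1 FPKM (46395 of 104573), on log2(FPKM + 1), with limma 3.58.1 in R 4.3.3 (9 groups in 1 fit, variance trend, two-sided, Benjamini-Hochberg within a contrast, threshold 0.05), and the fit was tested on simulated data. The 3 genes and the lists were chosen with earlier results of these data known. Only Hal against control at 2 h was tested for the 3 genes. Lists used whole words in descriptions (11124 genes have one) or domains (31283 genes). In each list the tested genes with the highest mean FPKM were named (4 for chitinase, CAP and defensin lists, 2 for the others), and for each of the 3 genes the 5 with the highest r. The neighbours were the 20 nearest tested genes on either side, fewer where the scaffold ended. Ratios are of mean FPKM.

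The alternatives were no filter, a filter of 5 FPKM, a pseudocount of 0.1, only the 6 compared libraries, the replicate block, equal totals of reads, limma voom on reads, and leaving out each library. Passing the filter without the libraries of 1 treatment was checked after the data were seen. The intended motif search in promoters was not run.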

Additional observations from a re-analysis of the deposited data

Results flagged for a closer look

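Several genes had every library on one side of control in one contrast and every library on the other side in another, and none of these differences between contrasts was itself tested. Contrasts at the same time share their control libraries. The 3 genes were chosen in part for such courses. CHB4 (BnaA03g20310D) was above control at 2 h after Pic (log2 difference 3.03) and below it at 48 and 96 h after Pic (-0.60 and -0.86), and at 48 h above control after Hal (2.15) but below after Pic. PR1 (BnaC03g45470D) was above control at 2 h after Pic (2.14) and below at 48 and 96 h after Pic (-4.06 and -1.59), while it was above control after Hal at both times (0.71 and 1.77).

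PR-1a (BnaA03g38630D) was below control at 2 h after Hal (-0.90) and above at 48 and 96 h after Hal (0.91 and 2.75), with the opposite course after Pic (2.31 at 2 h, then -4.23 and -0.32, the last being 0.14 with equal totals of reads). Defensin 1.2 (BnaA07g32150D) was above control after Hal (1.37) and below after Pic (-0.61) at 96 h. The defensin gene BnaC07g21510D was below control after Hal at 48 h (-1.28), and after Pic above at 48 h (0.54) and below at 96 h (-0.87). Thionin-2.1 (BnaC03g37070D) was below control at 2 h after Hal (-1.19) and after Pic (-0.72), and above at 48 and 96 h after Hal (0.49 and 2.07) and at 48 h after Pic (0.95).

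Of the Glyco_hydro_17 domain genes, BnaC04g24330D was above control at 2 h after Pic (1.54) and below at 48 and 96 h (-2.38 and -0.85), and after Hal below at 48 h (-0.27, but 0.12 with equal totals of reads) and above at 96 h (1.03). BnaA04g02490D was below control at 2 and 48 h after Hal (-0.93 and -1.63) and above at 96 h (0.19, limma adjusted p = 0.163), when Pic libraries were below (-0.38, but 0.08 with equal totals of reads). Of the thaumatin domain genes, BnaA01g12890D was below control at 2 h after Hal (-0.24, limma adjusted p = 0.191) and above after Pic (0.72). It was below at 48 and 96 h after Pic (-1.45 and -1.70) and above at 96 h after Hal (0.53). BnaA09g44230D was above control after Hal (1.14) and below after Pic (-0.29, but 0.17 with equal totals of reads) at 96 h. The MLP-like gene BnaAnng33440D was below control at 2 h after Pic (-0.80) and above at 48 and 96 h after Pic (1.02 and 0.88), when Hal libraries were below (-0.30 and -0.17). Neither Hal difference passed the test (limma adjusted p = 0.134 and 0.377), and that of 96 h was 0.19 with equal totals of reads.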

How the results depend on the processing

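Most values kept their direction and their side of the threshold, or moved by less than the spread between replicates (349 of the alternative values, against 38 that moved and 3 that lost a call). The 3 lost calls were those of PR1 (BnaC03g45470D) at 2 h after Hal. With the replicate block its rise stayed at 0.36 (limma adjusted p = 0.0526), and without single libraries it was between 0.32 and 0.39. Replicate numbers did not pair the libraries (residual correlations of same-numbered libraries from -0.11 to 0.11), and over the lists the block ended 16 calls and added 2 among 744 pairs of gene and contrast.

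CHB4 (BnaA03g20310D) is the gene most affected by the pseudocount. With limma voom on reads and with a pseudocount of 0.1, its log2 difference was 3.10 and 3.01 at 2 h after Hal, 3.88 and 3.79 at 2 h after Pic, 3.14 and 3.02 at 48 h after Hal, -2.12 and -1.72 at 48 h after Pic, and -1.74 and -1.58 at 96 h after Pic. Equal totals of reads gave CHB4 0.79 after Hal and -0.60 after Pic at 96 h. They gave PR1 1.10 after Hal and -3.84 after Pic at 48 h, and 2.41 and -1.12 at 96 h. They gave the defensin gene (BnaA07g32130D) 1.62 at 48 h after Hal, and 4.59 after Hal and 1.14 after Pic at 96 h.

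For the counts over all lists, a filter of 5 FPKM, which tests fewer genes, left 11 up at 2 h after Hal, 3 down at 2 h after Pic, 13 down at 48 h after Hal, 12 up at 48 h after Pic, 14 down at 96 h after Hal and 19 up at 96 h after Pic. Equal totals gave 57 up and 12 down at 48 h after Hal, 32 up at 48 h after Pic, 60 up and 11 down at 96 h after Hal, and 57 up and 15 down at 96 h after Pic. With only the 6 compared libraries, 9 rose at 48 h after Pic. Without single libraries, the counts were 13 to 20 down at 2 h after Hal (13 without control replicate 3), 2 to 7 down at 2 h after Pic (2 without Pic replicate 3, 5 without Pic replicate 1) and 10 to 24 up at 48 h after Pic (10 and 13 without control replicates 1 and 3, 11 and 12 without Pic replicates 1 and 3). Except for equal totals of reads, the shares of all tested genes under these settings are not given here. Nor is the number of list genes that the filter of 5 FPKM kept. These counts are therefore not read as a change in the lists beyond that of all genes, and the cause of these shifts was not tested.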

Other observations

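A gene without a description near CHB4, BnaA03g20290D, was noticed after its values were seen. Its start coordinate on the same scaffold is 15558 bases from that of CHB4, and BnaA03g20300D lies between them. It averaged 1.51 FPKM in Hal leaves and 10.2 FPKM in Pic leaves against 3.70 FPKM in control leaves at 2 h, and 10.4 FPKM in Hal leaves and 0.357 FPKM in Pic leaves against 0.378 FPKM in control leaves at 48 h. At 96 h it averaged 7.84 FPKM in Hal leaves and 1.28 FPKM in Pic leaves against 0.512 FPKM in control leaves. Its levels were not tested.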
